A study of Mus musculus with 12 samples.

Results

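The AMPA and NMDA receptor subunit genes, 10 of the 55073 annotated genes in the files, were followed through 6 mouse RNA-seq libraries. They were chosen by name: Gria1, Gria2, Gria3 and Gria4 encode the AMPA receptor subunits, and Grin1, Grin2a, Grin2b, Grin2c, Grin2d and Grin3a encode NMDA receptor subunits. All 10 had at least 10 expected counts in every library, a level reached by 14993 genes. The study compared cortex of male Nestin-Cre mice (Larp1 WT) with that of Nestin-Cre;Larp1-flox/flox mice (Larp1 KO), all C57BL/6J, and its methods name the posterior cortex. Nestin-Cre is carried by both genotypes and acts in early progenitors of neurons and some glia. The age at collection is not given in the sources used. The labels list 12 samples, 6 per genotype, as 3 replicates with 2 parts each, while each of the 6 files used here carries only the number of a mouse. Nothing in the labels, files or methods links these mouse numbers with Larp1 WT or Larp1 KO, so no library was assigned to a genotype, the question of whether these genes differ between Larp1 WT and Larp1 KO cortex was not analysed here. All 6 libraries are described one by one or by their range and median.

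AMPA and NMDA receptors are the ion channels through which glutamate excites cortical neurons. AMPA receptors are tetramers that open quickly and carry most of the fast current, and the subunit encoded by Gria2, once its RNA is edited, keeps calcium out of the channel. NMDA receptors pair the obligatory Grin1 subunit with Grin2 or Grin3 subunits, need a co-agonist beside glutamate, let calcium in when the neuron is already depolarized, and are known for their part in synaptic plasticity, with Grin2b high early in cortical development and Grin2a rising later.

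Each AMPA subunit gene carries a pair of neighbouring 115-base exons, flip and flop, of which a coding mRNA that extends through them uses one. They encode part of the ligand-binding domain and set how fast the channel desensitizes. Gria2 and Gria4 are shown because, of their flip and flop forms, flip was the larger in the first and flop in the second. In GRCm38 the Gria2 flip exon is chr3:80690404-80690518 and the flop exon chr3:80691320-80691434, both on the minus strand and both coding. The Gria4 flip exon is chr9:4427030-4427144 and the flop exon chr9:4432773-4432887, also on the minus strand. Sequences were read from the GENCODE M21 transcripts, 5′ to 3′, and capitals mark the bases at which flip and flop of the same gene differ.
Gria2 flip: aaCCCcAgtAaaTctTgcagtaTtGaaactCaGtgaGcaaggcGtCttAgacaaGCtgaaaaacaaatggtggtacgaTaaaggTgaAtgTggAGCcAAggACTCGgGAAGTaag
Gria2 flop: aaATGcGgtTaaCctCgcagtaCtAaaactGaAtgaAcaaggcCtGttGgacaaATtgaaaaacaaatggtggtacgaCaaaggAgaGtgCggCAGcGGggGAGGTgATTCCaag
Gria4 flip: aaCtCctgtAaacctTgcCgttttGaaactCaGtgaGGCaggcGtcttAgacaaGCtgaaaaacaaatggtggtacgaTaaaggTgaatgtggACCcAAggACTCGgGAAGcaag
Gria4 flop: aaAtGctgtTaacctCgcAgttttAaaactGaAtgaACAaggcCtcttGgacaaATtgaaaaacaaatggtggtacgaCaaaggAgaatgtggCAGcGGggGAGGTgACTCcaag
Flip and flop differed at 36 of 115 bases in Gria1 and Gria2, 32 in Gria3 and 31 in Gria4. When translated, they differed at 8 of 38 residues in Gria1, 9 in Gria2 and Gria3 and 10 in Gria4. The flop residues of Gria2, Gria3 and Gria4 were identical over all 38 positions, and those of Gria1 differed from them at a single position. The flip residues varied more, with 34 to 37 of 38 shared between any pair of genes. Flop was the upstream exon in all 4 genes.

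Grin1 has 2 alternative cassettes and 2 alternative ends. N1, exon 4 of 20 in Grin1-203, lies in the extracellular amino-terminal domain and is known to alter inhibition of the channel by protons. C1, exon 19 of 20 in Grin1-201, lies in the intracellular tail and is known to hold a signal that retains the protein in the endoplasmic reticulum. N1 is chr2:25311343-25311405 and C1 is chr2:25294438-25294548 in GRCm38, both on the minus strand. Capitals mark the cassette, between 10 bases of each neighbouring exon.
N1: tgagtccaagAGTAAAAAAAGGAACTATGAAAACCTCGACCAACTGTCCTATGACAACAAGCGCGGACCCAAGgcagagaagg
C1: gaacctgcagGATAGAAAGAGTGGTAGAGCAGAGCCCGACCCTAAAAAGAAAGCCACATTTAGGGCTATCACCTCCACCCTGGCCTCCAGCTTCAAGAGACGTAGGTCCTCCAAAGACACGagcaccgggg
N1 adds 21 residues and C1 adds 37. The third choice is the start of the last exon, which either includes a further 356 bases (C2 ending) or begins after them (C2' ending). The 8 combinations of N1, C1 and C2 are each annotated as a complete coding transcript.

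Libraries held 34689262 to 44463362 expected counts. Nuclear protein-coding genes held 22.7% to 28.8% of TPM, the length-scaled share of RNA, with the lowest share in mouse 700 and the highest in mouse 703. The files do not state the tissue, and the markers of cortex were present: Slc17a7, the vesicular glutamate transporter of cortical excitatory neurons, was at 347 to 492 TPM, whereas Gabra6, which defines cerebellar granule cells, had 0 to 1 expected counts. Gabra6 was 1 of 6 genes listed as granule cell markers, and whether each of the others is particular to those cells was not examined. Of the 6, 3 were detected, Etv1 at 29.0 to 39.6 TPM, Cbln1 at 3.77 to 10.4 TPM and Fat2 at 0.03 to 0.07 TPM. Barhl2 (0 to 103 expected counts, up to 1.39 TPM) and Cbln3 (9 to 16 expected counts) did not reach 10 counts in every library, but were not absent from all. Other brain regions could not be told apart from these values alone, and the striatal genes Adora2a (0.29 to 4.29 TPM) and Drd2 (0.29 to 3.03 TPM) were both lowest in mouse 700 and highest in mouse 687. Larp1 was at 6.28 to 20.0 TPM over the 6 libraries and was not used to sort them. In bulk tissue, fewer cells of a type and less RNA per cell cannot be told apart, which holds for every level below.

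Among the AMPA subunit genes, Gria2 (chr3:80681450-80802835) was the most abundant and Gria4 the least. Gria2 was at 86.1, 86.7, 96.0, 83.8, 76.7 and 107 TPM in mice 678, 687, 688, 698, 700 and 703, the order used for every list of 6 values below. The highest library was mouse 703 and the lowest mouse 700. Gria1 (chr11:57011387-57330244), whose product is the subunit best known for insertion into synapses during plasticity, was at 46.3, 54.4, 52.7, 57.2, 44.1 and 65.6 TPM. Gria3 (chrX:41400854-41678601), a partner of Gria2 in many cortical receptors, was at 42.3, 37.5, 43.8, 39.0, 36.5 and 49.4 TPM. Both again had their extremes in mice 700 and 703. Gria4 (chr9:4417896-4796234), known for its expression in interneurons and early in development, was at 18.2, 20.2, 20.3, 19.9, 15.8 and 22.3 TPM. Its range did not overlap that of Gria3, which was 2.19 times as high at the median (1.86 to 2.32 times within a library).

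Grin1 (chr2:25291181-25319187), the obligatory NMDA receptor subunit gene, was the highest of the 10. It was at 109.8, 96.7, 106, 106, 98.2 and 129 TPM, so that 5 libraries lay close together and mouse 703 above them. Grin2b (chr6:135713233-136173511), the subunit gene that prevails early in life, was at 68.2, 77.3, 82.6, 65.0, 58.8 and 88.5 TPM. Grin2a (chr16:9567898-9995560), the subunit gene that rises with maturation, was at 52.3, 48.8, 51.2, 50.4, 48.9 and 54.5 TPM. Its highest library was only 1.12 times its lowest, the smallest ratio of the 10 genes in TPM, while that of Grin2b was 1.51.

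The remaining NMDA subunit genes were low. Grin3a (chr4:49661611-49845744), which encodes a glycine-binding subunit known to reduce calcium entry, was at 6.66, 7.58, 8.42, 9.33, 6.12 and 12.6 TPM, and mouse 703 was 2.06 times mouse 700. Grin2c (chr11:115249169-115267243), better known from cerebellum, was at 6.61, 7.50, 5.93, 5.57, 5.05 and 6.99 TPM. Grin2d (chr7:45831883-45878378), found in interneurons and in the brainstem, was the lowest of the 10, at 2.72, 2.31, 2.58, 3.35, 2.71 and 3.19 TPM. Its 526 to 608 expected counts still put it well above the detection limit, but it overlaps Kdelr1 (969 to 1354 counts) and Gm45441 (199 to 253 counts) on the opposite strand. No source used states whether counting took strand into account, so reads of the overlaps cannot be told apart with certainty.

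**Figure D1:**
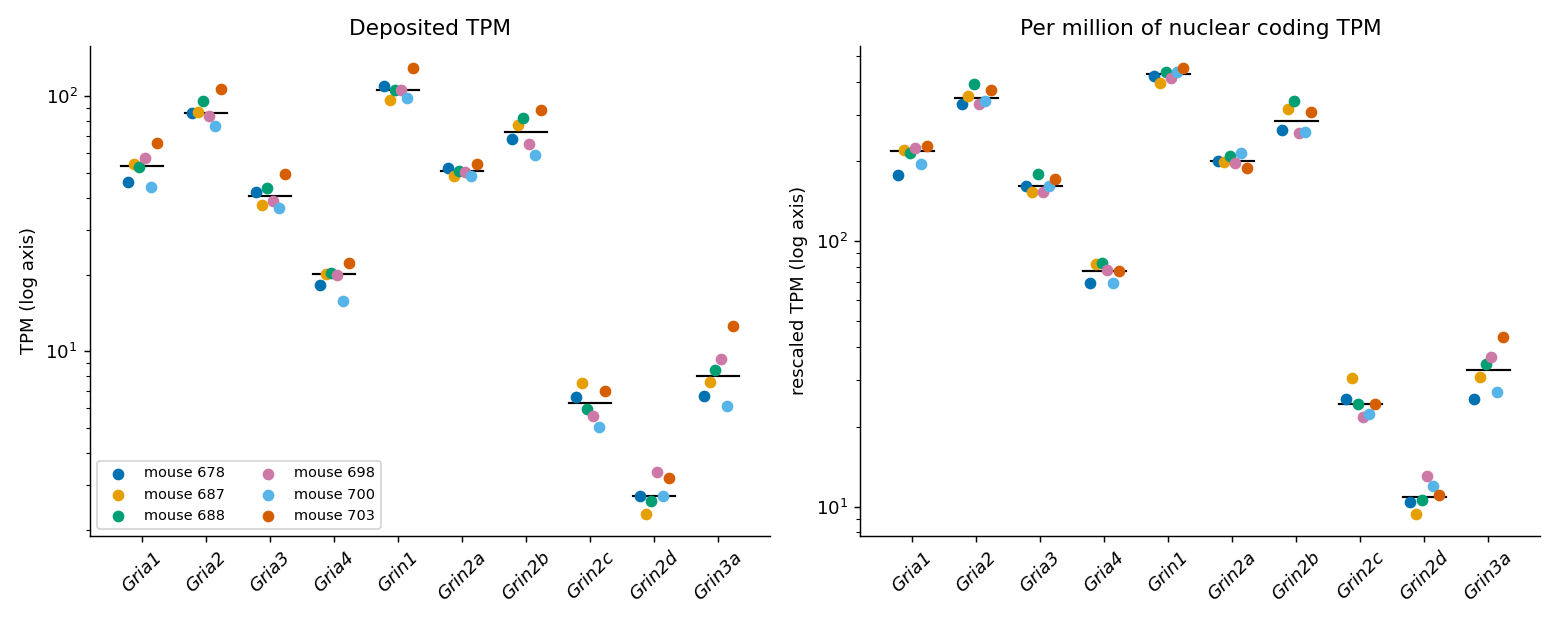
Level of each AMPA and NMDA receptor subunit gene in 6 libraries on log axes, in deposited TPM (left) and in TPM rescaled to the nuclear protein-coding sum (right). Each dot is 1 mouse and the bar is the median. Mouse 703 is the highest for 8 of 10 genes on the left and for 3 of 10 on the right.

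In order of median TPM the genes ran Grin1 (106), Gria2 (86.4), Grin2b (72.7), Gria1 (53.5), Grin2a (50.8), Gria3 (40.6), Gria4 (20.0), Grin3a (8.0), Grin2c (6.27) and Grin2d (2.71). Of the 9 neighbouring pairs in that order, 8 kept the order in 6 of 6 libraries. Gria1 and Grin2a did not, with Gria1 above in 4 of 6 libraries and a ratio between 0.885 and 1.20. Grin3a and Grin2c kept their order, but by as little as 1.01 times in a single library. Ranges over the libraries overlapped for 6 of the 9 pairs, and the 3 gaps lay between Gria3 and Gria4, Gria4 and Grin3a, and Grin2c and Grin2d.

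Much of the spread in TPM was shared by the genes. In deposited TPM, 8 of 10 were highest in mouse 703 and 7 of 10 were lowest in mouse 700, the libraries with the most and the least TPM in nuclear protein-coding genes. After TPM was rescaled over those genes, mouse 703 was highest for 3 of 10 and mouse 700 lowest for 1 of 10. Mouse 688 was then highest for 4, among them Gria2 (393 rescaled TPM, against 329 to 372 elsewhere) and Grin2b (339, against 255 to 315). The summed AMPA subunit genes ran from 173 to 245 TPM but from 739.9 to 872 rescaled TPM, and the summed NMDA subunit genes from 219.7 to 295 TPM but from 937 to 1054 rescaled TPM.

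A ratio of highest to lowest library of at least 1.5 was reached by Grin2b and Grin3a in TPM, 2 of 10 genes, where 47.8% of all 14993 detected genes reached it. In rescaled TPM only Grin3a of the 10 reached it, at 1.71, against 33.8% of all genes. The median ratio of the 10 genes was 1.43 in TPM and 1.24 in rescaled TPM, beside 1.48 and 1.36 over all detected genes. Grin1 had the smallest rescaled ratio, 1.14 (Grin2a rounded to the same value), with 394 rescaled TPM in mouse 687 and 449 in mouse 703. Grin3a stood at 25.5, 30.9, 34.5, 36.6, 27.0 and 43.7 rescaled TPM. With counts scaled by TMM or by DESeq2 size factors, Grin3a was again the single one of the 10, against 28.2% of all genes under either scaling. Dixon's ratio, the gap to the nearest value over the whole range, was past its 95% critical value for 0 of the 10 genes in TPM and in rescaled TPM, while 7.02% and 5.90% of all detected genes had such a library.

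**Figure D2:**
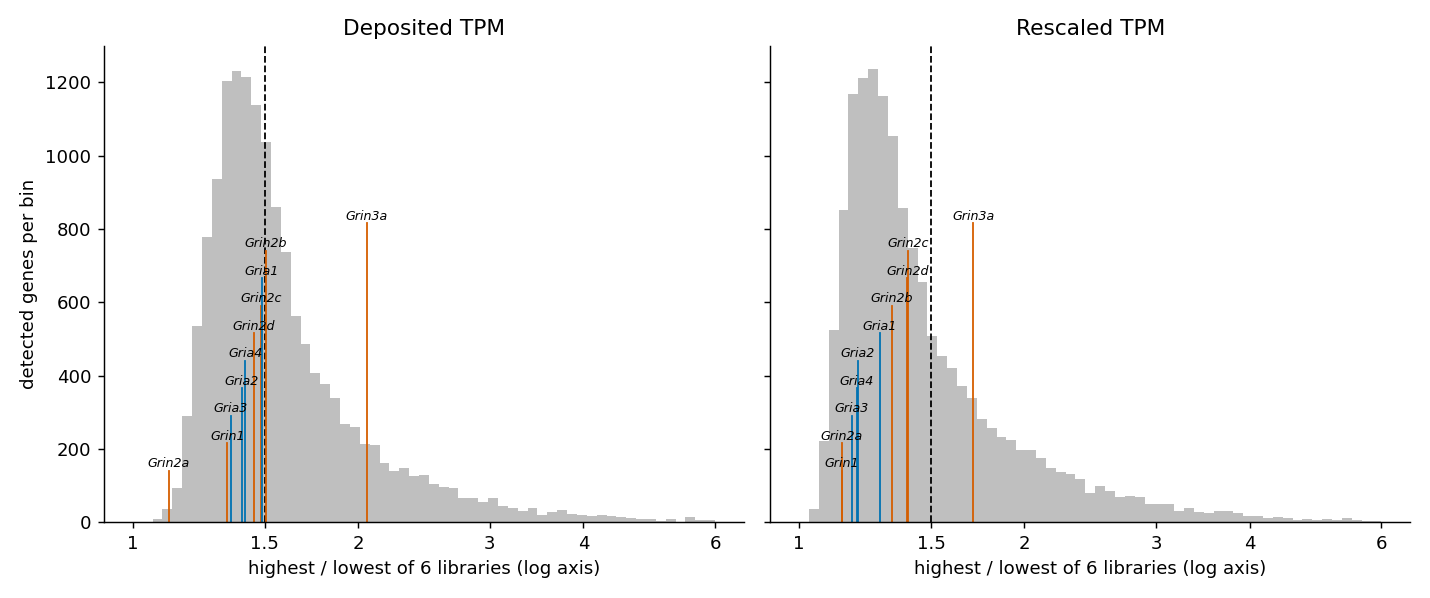
Number of detected genes by their highest over their lowest value in 6 libraries, on a log axis, for deposited TPM (left) and rescaled TPM (right). Vertical lines mark the AMPA (blue) and NMDA (orange) subunit genes, their heights are only for legibility, and the dashed line marks 1.5. Grin3a lies at 2.06 and 1.71, and 95 and 106 genes with ratios above 6 lie beyond the axis.

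Shares within a library do not depend on how libraries are scaled. Gria2 made up 41.9% to 45.1% of summed AMPA subunit TPM, with a median of 44.1%. Gria1 made up 24.0% to 28.6%, Gria3 18.9% to 21.9% and Gria4 9.11% to 10.2%. The 4 ranges did not overlap. The ratio of Gria1 to Gria2 ran from 0.538 in mouse 678 to 0.683 in mouse 698.

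Among the NMDA subunit genes, Grin1 made up 40.3% to 44.7% of the summed TPM, Grin2b 26.7% to 32.2% and Grin2a 18.5% to 22.3%. Grin3a (2.70% to 4.26%), Grin2c (2.30% to 3.12%) and Grin2d (0.962% to 1.40%) made up the rest. Grin2b exceeded Grin2a in every library, with a Grin2a to Grin2b ratio of 0.767, 0.631, 0.620, 0.775, 0.832 and 0.616. Grin1 in relation to the 4 Grin2 genes together ran from 0.712 in mouse 687 to 0.851 in mouse 700. The AMPA to NMDA ratio of summed TPM was 0.783 to 0.836 with a median of 0.827. These shares are per length. In expected counts, which grow with transcript length, Grin1 made up 20.0% of the NMDA subunit genes at the median and Grin2b (34359 to 55222 counts) exceeded Grin1 (13855 to 17434 counts), the Grin2a to Grin2b ratio was 0.442 and the AMPA to NMDA ratio 0.422.

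**Figure D3:**
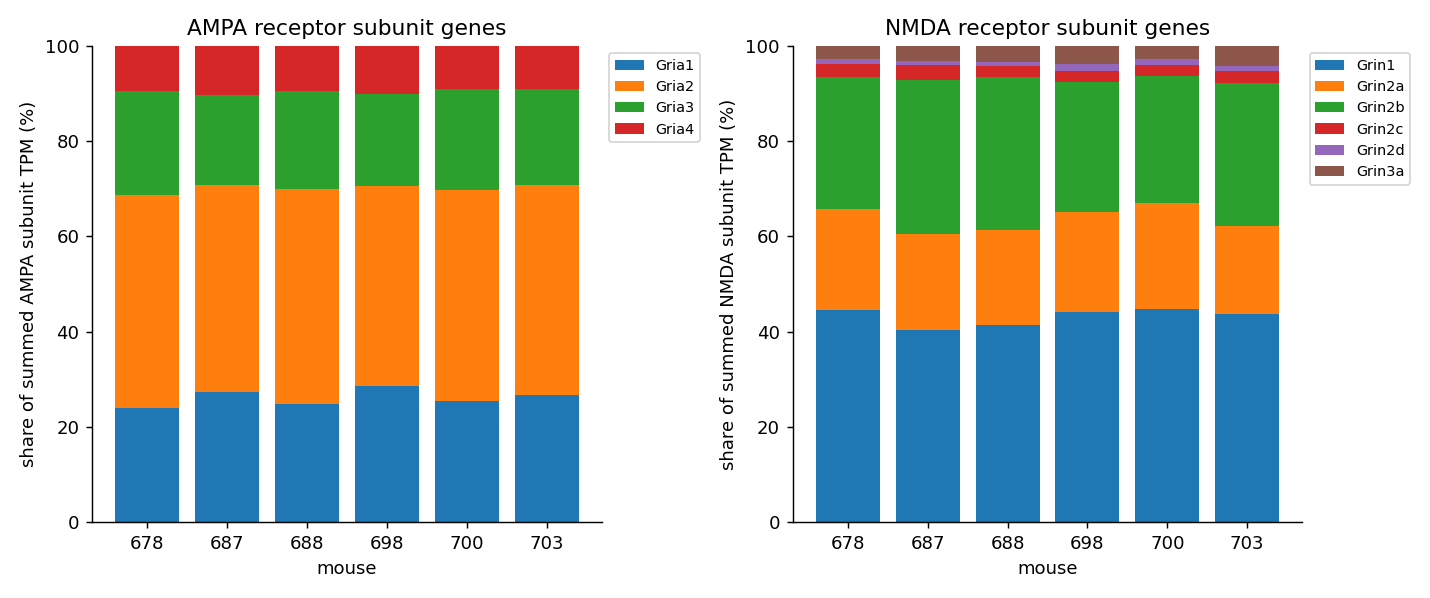
Share of each gene in the summed TPM of the 4 AMPA (left) and the 6 NMDA (right) receptor subunit genes, in percent, for each of 6 mice. Gria2 and Grin1 are the largest parts of their groups in every library in TPM, at 41.9% to 45.1% and 40.3% to 44.7%. In expected counts Grin2b exceeds Grin1.

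The AMPA subunit genes used the flip exon to very different extents. Gria2 was mostly flip, with 84.9% to 87.0% of its flip and flop TPM in the flip form. Gria3 was also mostly flip, at 72.1%, 80.6%, 79.3%, 70.6%, 67.0% and 86.0%. Gria1 used both, at 45.9%, 47.5%, 50.6%, 37.4%, 39.7% and 52.4% flip, and flip exceeded flop in 2 of 6 libraries. Of the flip and flop forms of Gria4, flop was the larger in 6 of 6 libraries, with flip at 17.0%, 24.9%, 29.6%, 23.5%, 10.7% and 31.3%. The exon sequences that separate these forms are those printed above, and the ranges of Gria1 and Gria4 did not overlap those of Gria2 and Gria3, nor each other. In Gria1, Gria3 and Gria4 alike, mouse 703 had the highest flip share.

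These shares rest on transcripts that differ in more than the exon. The flip isoform Gria2-202 is annotated with a last exon of 920 bases and the flop isoform Gria2-201 with one of 7265 bases, so the Gria2 value depends on the annotated 3′ ends, and as a share of expected counts it was 70.0%. In Gria3 the last exon was 2262 bases for flip and 246 for both flop isoforms, and the share of expected counts was 85.2%. In Gria1 and Gria4 the last exons of flip and flop differed by only a few bases.

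**Figure D4:**
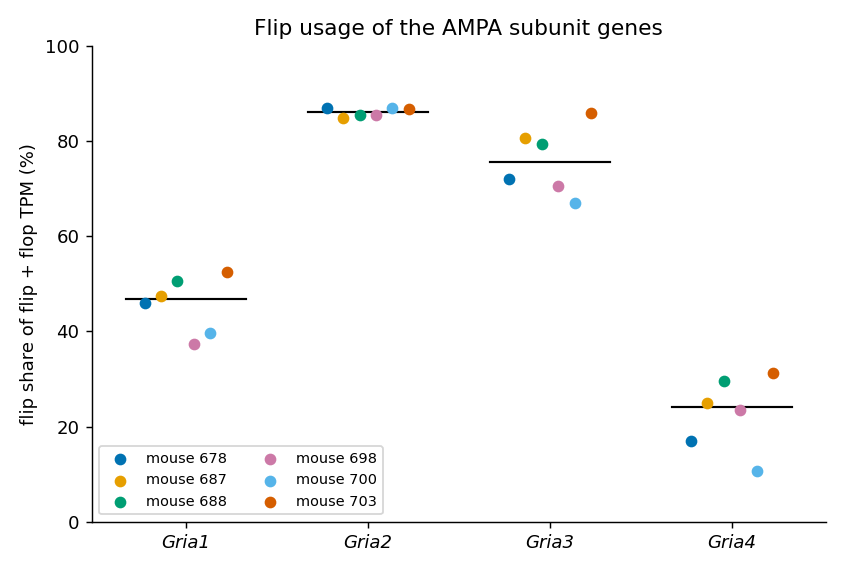
Flip share of flip and flop TPM in percent for the 4 AMPA receptor subunit genes. Each dot is 1 mouse and the bar is the median of 6, at 46.7% for Gria1, 86.0% for Gria2, 75.7% for Gria3 and 24.2% for Gria4.

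Not all RNA of these genes was a complete coding form. Gria1 was carried almost wholly by Gria1-202 (flop, 24.9 to 35.6 TPM) and Gria1-201 (flip, 17.0 to 33.3 TPM), both of 907 codons without the stop. Beside Gria2-202 (46.7 to 77.6 TPM) and Gria2-201 (6.98 to 11.9 TPM), Gria2 had 2 intron-retaining isoforms above 5% of its TPM, Gria2-208 at 9.20 to 15.0 TPM and Gria2-206 at 4.12 to 5.98 TPM. Intron-retaining isoforms together held 15.8% to 29.0% of Gria2 TPM and 5.73% to 12.7% of Gria3 TPM. According to the methods, the libraries were made from total RNA after removal of ribosomal RNA. Whether reads of unspliced RNA were assigned to these isoforms was not tested. Gria3 was mainly Gria3-201 (flip, 20.6 to 37.5 TPM), with the flop isoforms Gria3-209 at 3.57 to 7.08 and Gria3-202 at 0.92 to 6.56 TPM and the intron-retaining Gria3-208 at 1.72 to 4.10 TPM. For Gria4, 52.3% to 57.9% of TPM was assigned to Gria4-203, a short coding isoform of 11 exons and 433 codons that ends before the flip and flop exons. The Gria4 flip share therefore describes a median of 44.1% of the RNA of that gene, from Gria4-201 (flop, 5.17 to 6.17 TPM), Gria4-202 (flip, 0.71 to 3.08 TPM) and the minor flop isoform Gria4-204.

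Grin1 was spread over all 8 variants. GluN1-1a, with C1 and the C2 ending, was the largest at 28.1% to 32.0% of complete coding Grin1 TPM. GluN1-4a, with neither C1 nor C2, followed at 21.4% to 27.8%. GluN1-3a was at 14.5%, 19.5%, 13.4%, 13.4%, 13.5% and 13.5%, so that 5 libraries lay within 13.4% to 14.5% and mouse 687 above them. GluN1-2a was at 10.1% to 16.6%. The variants with N1 were each smaller at the median, at 9.78% for GluN1-4b, 5.20% for GluN1-1b, 2.16% for GluN1-3b and 1.92% for GluN1-2b.

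Summed over the variants, the N1 cassette was included in 19.6%, 18.9%, 14.3%, 17.3%, 20.4% and 18.3% of complete coding Grin1 TPM. It was thus the less used form in every library. C1 was included in 45.1% to 57.6%, with mouse 698 lowest and mouse 687 highest, and the C2 ending was used in 47.1% to 53.6%. C1 and C2 went together: C1 was in 63.2% to 75.1% of TPM with the C2 ending and in 27.8% to 42.0% of TPM with the C2' ending, ranges that did not overlap. The link between N1 and the tail is less certain, because 2019 bases and 15 exons of mRNA lie between N1 and C1, and how their reads are joined is an estimate by RSEM. GluN1-4b moved from 3.01% to 12.6% between libraries, a ratio of 4.18, and GluN1-1b from 2.51% to 8.48%, whereas the summed N1 share stayed within 14.3% to 20.4%.

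**Figure D5:**
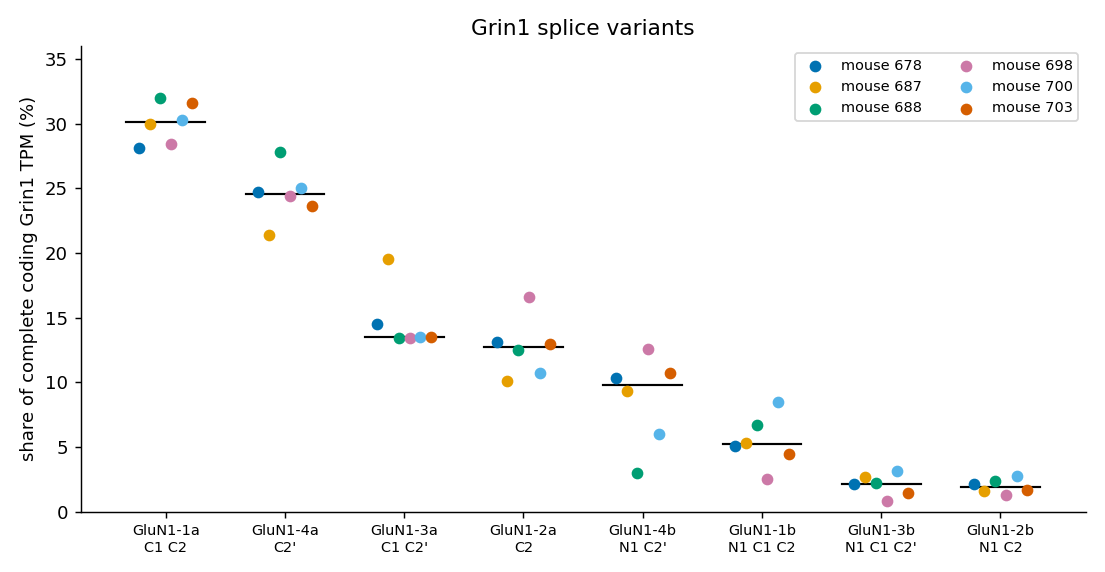
Share of each of the 8 Grin1 splice variants in complete coding Grin1 TPM, in percent, with the cassettes each holds named below it. Each dot is 1 mouse and the bar is the median of 6. GluN1-1a is the highest at 28.1% to 32.0%, and mouse 687 lies at 19.5% for GluN1-3a where the others lie at 13.4% to 14.5%.

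Other genes of the same pathway were measured alongside. Of 8 other ionotropic glutamate receptor genes, 7 were detected and Grin3b was not, with 0 to 4 expected counts. The kainate receptor gene Grik5 (44.6 to 70.9 TPM) was the highest and Grid1 (11.7 to 18.2 TPM) next, and Grik1, at 2.79 to 4.76 TPM, had the largest ratio with 1.71. In rescaled TPM 0 of the 7 reached 1.5, against 33.8% of all detected genes, the share to set beside each count of list genes below. All 16 genes for AMPA receptor auxiliary and assembly proteins were detected, and 4 reached 1.5 in rescaled TPM, a smaller share than that of all genes: Cacng5, Shisa6 and, named after their values were seen, Cacng4 and Gsg1l. Cnih2 (55.4 to 91.9 TPM), which aids export of AMPA receptors, and Frrs1l (48.1 to 72.4 TPM), which aids their assembly, were the most abundant. Cacng5 (1.11 to 4.11 TPM) and Shisa6 (2.23 to 5.81 TPM), both auxiliary subunits, varied most, and both were lowest in mouse 678 and highest in mouse 703.

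Of the 13 trafficking and anchoring genes, all were detected and 2 reached 1.5 in rescaled TPM, again a smaller share than the 33.8% of all genes. They were Sacm1l and Neto1, which were also named after their values were seen. Dlg4, which encodes the postsynaptic scaffold PSD-95, was at 195 to 272 TPM, and its rescaled ratio was 1.10. Nsf, whose product binds the Gria2 subunit, was at 147 to 232 TPM with the largest TPM ratio of the list, 1.58, shared by Dlg3 at 25.6 to 40.4 TPM. Of 7 co-agonist and RNA editing enzyme genes, 6 were detected and 2 reached 1.5 in rescaled TPM, Shmt1 and Shmt2, a share close to that of all genes. Adar and Adarb1, the editing enzymes, were at 25.9 to 38.9 and 24.8 to 34.4 TPM, whereas the serine hydroxymethyltransferase genes Shmt1 (0.22 to 0.71 TPM) and Shmt2 (2.76 to 5.58 TPM) varied most. Dao, which breaks down D-serine, had 0 expected counts in every library, which allows up to 3 in each by counting error.

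Markers of cell types and states were read beside the same 33.8% of all genes past 1.5 in rescaled TPM. All 7 oligodendrocyte markers used reached it, and their sum ran from 363 TPM in mouse 687 to 593 TPM in mouse 678, with Mbp and Mobp highest in level and Mog and Mobp highest in the ratio of deposited TPM. All 12 immediate early genes reached it, and their sum ran from 260.4 TPM in mouse 703 to 769 TPM in mouse 688. Egr1 (94.9 to 202 TPM) and Egr3 (41.7 to 66.3 TPM) had the highest medians, though others of the list peaked above Egr3. Npas4 (1.83 to 16.9 TPM) and Egr2 (2.49 to 18.5 TPM) were highest in the ratio of deposited TPM. In rescaled TPM the highest sum of the immediate early genes was 3.49 times the lowest. Gria2, Gria3, Gria4 and Grin2b were highest in mouse 688 in rescaled TPM and in mouse 703 in deposited TPM. A link between these genes and the immediate early genes was not tested. Excitatory neuron markers summed to 900.4 to 1308 TPM (Slc17a6 and Fezf2, 2 of 8, past 1.5 in rescaled TPM), inhibitory to 332 to 442 (Pvalb, 1 of 8), astrocyte to 783 to 929 (Gjb6 and Gfap, 2 of 8), oligodendrocyte precursor to 50.4 to 66.7 (0 of 6) and microglia to 101 to 146 (0 of 8). Hippocampal and striatal markers summed to 60.8 to 109 TPM, and 5 of the 7 detected reached 1.5. The part of these markers in the levels of the receptor subunit genes was not tested.

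The study concerns mRNAs that begin with a terminal oligopyrimidine (TOP) motif, a C at the first base followed by a run of pyrimidines. At the annotated start of their most abundant isoform, 0 of the 10 genes had a C followed by at least 4 pyrimidines, and 2.35% of 13613 detected nuclear protein-coding genes had one. Annotated starts need not be the starts used in cortex, so this describes the annotation only.

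The genes whose profile over the 6 libraries was most like that of the summed AMPA subunit genes were Ythdf3, Rbm7 and Rnf44, with root mean square differences of 0.0073, 0.0093 and 0.0135 on the log2 TPM scale after each was centred on its median. For the summed NMDA subunit genes they were Mgat5, Vps13c and Rrn3, at 0.0208, 0.0231 and 0.0237. They were picked as the closest of 14993 genes over 6 values, and TPM carries the difference in coding share between libraries with it.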

How the data were processed

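RNA-seq values of 6 numbered mice were analysed, 1 file per mouse. The files were taken to be cortex because every labelled sample used here is cortex. According to the methods and processing notes, cutadapt was used by the authors for trimming, STAR for alignment to mm10 and RSEM for quantification, with no versions stated. The labels name TRIzol and a directional kit for these libraries. The RNA-seq methods give RNEasy columns with the NEBNext Ultra II kit, and their list of reagents also holds TRIzol and the directional kit. The authors deposited unnormalized expected counts for each transcript and TPM per transcript, scaled over 142351 listed transcripts. The deposited isoform percent column held only 0 or 100 and was not used. Value columns not used numbered 12.

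Transcripts were matched to GENCODE M21 (GRCm38) by identifier without version. Matches were found for 99.36%, and the other 910 held 0.2465% to 0.2716% of counts. TPM and expected counts were summed per gene, with no rounding. Rescaled TPM is TPM divided by the sum over nuclear protein-coding genes and brought to the scale of TPM. Detection required 10 expected counts in every library. Grin1 variant and cassette shares are of the TPM of complete coding transcripts, flip shares of the TPM of complete coding transcripts that hold flip or flop, and other isoform shares of all TPM of the gene. Flip and flop were told apart by the translated exon. Scripts ran in Python 3.11.15 with pandas 2.3.3 and Biopython 1.88, and scaling alternatives used edgeR 4.0.16 (TMM) and DESeq2 1.42.0 (size factors) in R 4.3.3. A check for a library deposited more than once found none (chi-square per degree of freedom 14.778 to 67.396 over 15 pairs of libraries).

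No genotype was assigned, so no test between groups was run, and each library's value, or the range and median, is given. Each library is 1 mouse and the spread is that between these mice and their preparation. The 10 genes, the lists and the rules were chosen with earlier results of these data known. The naming rule took all 10 genes, isoforms of Gria1 to Gria4 and Grin1 with a median of at least 5% of the gene's TPM, the 2 highest and the 2 most variable detected genes of each list, and the 3 genes most like each summed profile. Not all genes that the rule allows from the marker lists are printed, and 1 gene of these lists is not reported here and was left out of its list's counts and sums.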

Additional observations from a re-analysis of the deposited data

Results flagged for a closer look

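Of 56 levels, ratios and shares examined for a library far from the other 5, the share of GluN1-3a (Grin1-206) in complete coding Grin1 TPM was the single one past the limit, with a Dixon's ratio of 0.807. Mouse 687 stood at 19.5% and the others at 13.4% to 14.5%. The same library had the lowest share of GluN1-4a, 21.4%, and the highest share of C1, 57.6%. GluN1-3a itself holds C1 and all variants are parts of the same total, so neither value is independent of the GluN1-3a share. Chance alone puts about 1 in 20 independent groups of values past this limit, a larger share than 1 of 56. The 56 are not independent, because many share genes or totals, so this rate is only a rough guide. No cause was tested.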

How the results depend on the processing

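No paired analysis was possible because nothing links the mouse numbers to the labelled replicate numbers, and no test was run. Rescaling over nuclear protein-coding genes gave medians of 797 for the summed AMPA and 974 for the summed NMDA subunit genes in place of 199 and 243 TPM, as its construction implies. As shares of expected counts, which grow with transcript length, Gria2 was 41.8% of AMPA (44.1% in TPM), Grin1 20.0% of NMDA (44.0%), the Grin2a to Grin2b ratio 0.442 (0.699), the AMPA to NMDA ratio 0.422 (0.827), and the flip share 70.0% in Gria2 (86.0%) and 85.2% in Gria3 (75.7%). With protein-coding transcripts only, Gria2 was 38.1% and the AMPA to NMDA ratio 0.762. The count of subunit genes past a ratio of 1.5 was 1 in place of 2, losing Grin2b, by TMM, DESeq2 size factors, rescaled TPM or a pseudocount of 1. Of all 14993 detected genes 7172 passed it, against 4227 (TMM), 4224 (DESeq2) and 3114 (pseudocount, which lowers ratios by construction). The cause of the change with TMM and DESeq2 was not tested. With a filter of 1 count 11446 passed, but out of a larger set of genes with lower counts, so this count cannot be set beside 7172.

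With each mouse left out in turn, medians ran from 199 to 199.9 (AMPA sum) and 240.2 to 246 (NMDA sum) TPM, 43.9% to 44.3% (Gria2), 43.8% to 44.1% (Grin1), 0.631 to 0.767 (Grin2a to Grin2b) and 0.827 to 0.827 (AMPA to NMDA). Flip shares ran from 45.9% to 47.5% (Gria1), 85.4% to 86.7% (Gria2), 72.1% to 79.3% (Gria3) and 23.5% to 24.9% (Gria4), and Grin1 shares from 18.3% to 18.9% (N1), 51.0% to 54.3% (C1) and 48.8% to 50.7% (C2). Subunit genes past 1.5 numbered 1 to 2, with Grin2b lost without mouse 700 or without mouse 703. All genes past it numbered 5011 to 6764, each time of those detected in the libraries kept. The alternative that uses the deposited isoform percent column could not be run. The Gria4 flip share rests on as few as 167 expected counts of flip in a library.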

Other observations

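The Grin2a to Grin2b ratio was 0.616, 0.620, 0.631, 0.767, 0.775 and 0.832 in mice 703, 688, 687, 678, 698 and 700. The widest gap between neighbouring values lay between 0.631 and 0.767. It was noticed after the values were seen and was not tested, and no label divides the libraries there.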
